A study of Mus musculus with 6 samples.

Results

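S100 proteins are small calcium-binding proteins with a pair of EF-hand motifs, and 10 of their genes were followed here in mouse colon: S100a1, S100a4, S100a6, S100a8, S100a9, S100a10, S100a11, S100a13, S100a14 and S100a16. They were taken by name, with every probe set that the array annotation gives to them. Of 18194 genes with a probe set of their own, 9 were members, and all 9 were among the 10916 genes strong enough to be tested. The remaining member, S100a11, was read only by a probe set that it shares with a pseudogene and a predicted gene. The members had 14 probe sets in all, 13 of them with a single gene symbol.

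Total RNA came from the colon of C57BL/6 mice aged 6-8 weeks, taken 24 h after ethanol was injected into the rectum of every mouse. The 3 genotypes compared, with 2 arrays each, were wild type (WT), a knockout of GPR41 (GPR41 KO), the receptor encoded by Ffar3, and a knockout of GPR43 (GPR43 KO), encoded by Ffar2. Both receptors sense short-chain fatty acids, which gut bacteria make from fibre. The labels give neither the alleles nor the number of mice behind an array, and colon without ethanol was not analysed here. Nothing says that the arrays of a group came from separate mice, so the p-values measure only the spread between arrays, which may be technical.

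S100a8 and S100a9 form calprotectin, the heterodimer that fills the cytosol of neutrophils and is also made by monocytes and by stressed epithelium. Released calprotectin binds zinc and manganese, which starves microbes of these metals, and it can signal through TLR4. Its amount in stool is a clinical measure of gut inflammation. The other members act mostly inside cells, where several of them bind annexins, myosin or other target proteins in a calcium-dependent way.

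Signals were scaled alike, with the same trimmed mean in every array (the lowest and highest 2% left out) and medians from 80.9 to 96.8. The ratio of the 3' to the 5' Gapdh probe set, a sign of RNA integrity, lay between 0.778 and 0.858. Ffar2 was measured by 2 probe sets and checked the labels. For the first, WT gave 1194 and 1118, GPR41 KO gave 1857 and 1933, the library labelled GPR43 KO replicate 1 gave 1598 and its replicate 2 gave 189.0. The second read 840.2, 756.9, 1229, 1345, 1142 and 76.3 in the same order. The library labelled GPR43 KO replicate 1 was thus at 138% and 143% of the WT mean, and replicate 2 at 16.4% and 9.56%. The labels do not say whether these probes lie in the deleted part. No probe set named Ffar3, so nothing here tests the GPR41 KO label. The GPR43 KO values of the members, and the medians and some genes of most lists, are therefore given with and without the first library. The other GPR43 KO values include it.

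The 2 calprotectin genes fell in both knockouts. S100a8 and S100a9 had signals of 32866 to 58734 in WT and were at 0.430% to 2.69% of the WT mean in the 4 knockout arrays. S100a4 was the only other member to fall past the threshold, in GPR41 KO and by 2.56-fold. None rose past it. The threshold was an adjusted p of 0.05 in limma, a linear model fitted to all genes, and a signal is the MAS5 summary of the short probes that make up a probe set. The plot of signals by array shows the members side by side.

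**Figure D1:**
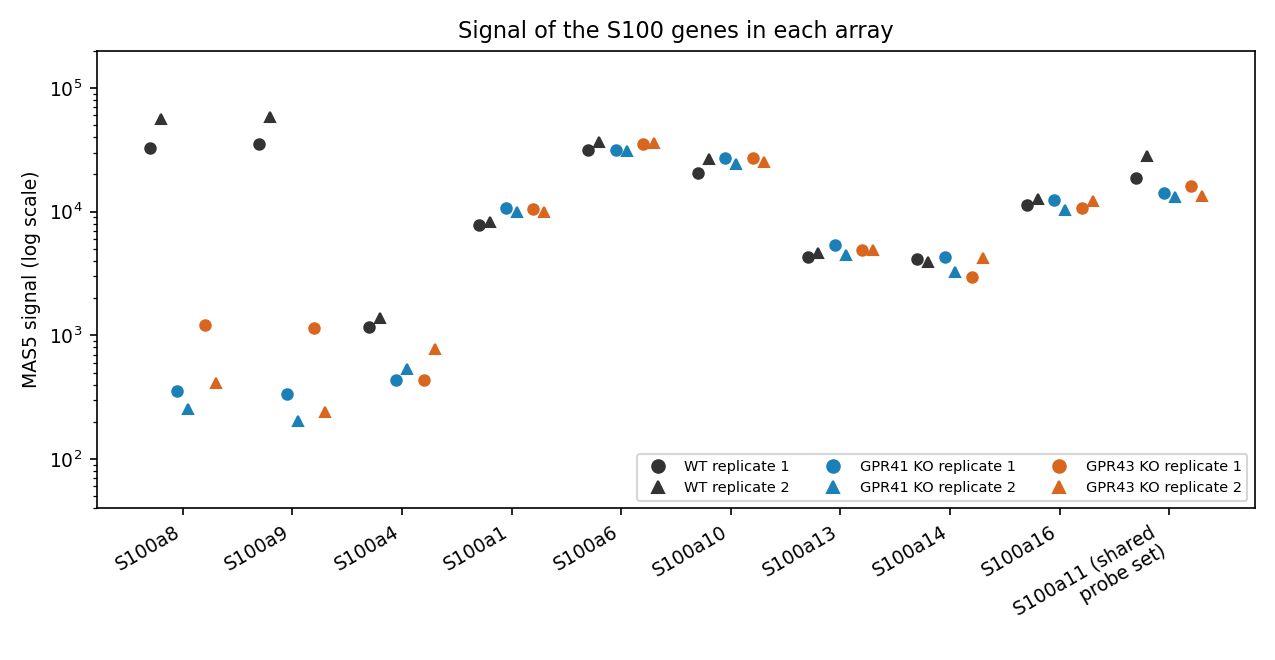
MAS5 signal (log scale) of the S100 genes in each of the 6 arrays, 1 point an array, coloured by genotype and shaped by replicate. S100a8 and S100a9 lie at or above 32866 in both WT arrays and at or below 1202 in the 4 knockout arrays, S100a4 is lower in the knockouts by a smaller step, and the remaining genes differ less between the groups.

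The S100a8 signal (probe set 1419394_s_at) in WT was 32866 and 56389. GPR41 KO gave 356.1 and 254.4, and GPR43 KO gave 414.4 in replicate 2 and 1202 in the library labelled replicate 1. Every knockout array was far below both WT arrays, and within the knockouts the first GPR43 KO library was the highest. The group means were 44627 ± 16633 (SD, n = 2) for WT, 305.3 ± 71.9 for GPR41 KO and 808.3 ± 557.1 for GPR43 KO. Changes are given as differences of log2(signal + 18) with the standard error (SE) of the limma fit, a scale that understates the change of weak signals. On it S100a8 fell by 7.08 ± 0.43 in GPR41 KO (95% interval -8.06 to -6.09, limma, adjusted p = 0.000143), or 135-fold. In GPR43 KO it fell by 5.89 ± 0.43 (-6.88 to -4.90, limma, adjusted p = 0.00067), or 59.3-fold. Without the first GPR43 KO library the latter change was -6.64 (limma, adjusted p = 7.84e-05), and without the other it was -5.14 (adjusted p = 0.000424).

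S100a9, the partner of S100a8 in calprotectin, was lowered by a like amount. Its probe set 1448756_at read 35541 and 58734 (WT), 336.4 and 202.9 (GPR41 KO) and 1147 and 239.2 (GPR43 KO). The knockout arrays were again all far below WT, and the GPR43 KO arrays enclosed the GPR41 KO replicate 1 value. The group means were 47137 ± 16400 (SD, n = 2), 269.6 ± 94.4 and 693.0 ± 641.7. The change was -7.35 ± 0.59 in GPR41 KO (-8.68 to -6.02, limma, adjusted p = 0.00059), or 163-fold lower, and -6.38 ± 0.59 in GPR43 KO (-7.71 to -5.05, limma, adjusted p = 0.00136), or 83.5-fold lower. Without the library labelled GPR43 KO replicate 1 it was -7.47 (limma, adjusted p = 7.84e-05), and without replicate 2 it was -5.29 (adjusted p = 0.000424).

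The 2 knockouts share their WT arrays, so their changes are not independent of each other. Set against each other directly, no gene of 10916 passed the threshold (0%), while 596 genes and 1 member, S100a8, had an unadjusted limma p under 0.05. With no true difference, a share of about 0.05 of all genes is expected under this cut, and 596 of 10916 lies near it. S100a8 was higher in GPR43 KO by 1.19 ± 0.43 (95% interval 0.20 to 2.17, limma, unadjusted p = 0.0238, adjusted p = 0.870), and both GPR43 KO arrays were above both GPR41 KO arrays. For S100a9 the difference was 0.97 (-0.36 to 2.30, limma, adjusted p = 0.895), with overlapping arrays. Without the library labelled GPR43 KO replicate 1 these differences were 0.44 and -0.12. Neither interval shows that the knockouts are alike in these genes.

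S100a8 and S100a9 lie next to each other on chromosome 3, on opposite strands, near the end of the S100 cluster. In the RefSeq order of protein-coding genes (GRCm38.p6) the cluster runs S100a1, S100a13, S100a14, S100a16, S100a3, S100a2, S100a4, S100a5, S100a6, S100a7a, S100a8, S100a9, after which Pglyrp4 follows. S100a11 and S100a10 are neighbours of each other elsewhere on the same chromosome. Between S100a4 and S100a8 lie S100a5, S100a6 and S100a7a, of which S100a6 is a member and did not pass the threshold.

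The start regions of the genes that passed the threshold are shown because these are the members that moved, and S100a4 was added after its values were seen. Each window runs from 250 bases before to 50 bases after the start that RefSeq gives (GRCm38.p6), 5′ to 3′ on the strand of the gene. They cover chr3:90668821-90669120 (plus strand) for S100a8, chr3:90695672-90695971 (minus strand) for S100a9 and chr3:90603520-90603819 (plus strand) for S100a4. Capitals mark matches, on either strand, to TATAAA (the TATA box), TTNNGNAA (the core of C/EBP sites) and GAGGAA (the core of PU.1 sites). Positions below count from 1 at the annotated start, and bases before it are negative.
S100a8: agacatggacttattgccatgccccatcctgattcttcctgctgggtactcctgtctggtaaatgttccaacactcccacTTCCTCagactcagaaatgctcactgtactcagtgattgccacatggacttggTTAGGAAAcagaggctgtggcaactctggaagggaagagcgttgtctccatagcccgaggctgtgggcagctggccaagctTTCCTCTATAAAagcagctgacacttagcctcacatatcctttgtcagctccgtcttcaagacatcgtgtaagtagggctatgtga
S100a9: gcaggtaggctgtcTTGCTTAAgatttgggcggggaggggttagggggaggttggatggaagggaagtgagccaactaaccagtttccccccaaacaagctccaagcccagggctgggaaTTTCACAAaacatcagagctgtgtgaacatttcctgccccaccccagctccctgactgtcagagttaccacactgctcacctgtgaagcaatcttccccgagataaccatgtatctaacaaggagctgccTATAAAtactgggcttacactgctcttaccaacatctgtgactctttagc
S100a4: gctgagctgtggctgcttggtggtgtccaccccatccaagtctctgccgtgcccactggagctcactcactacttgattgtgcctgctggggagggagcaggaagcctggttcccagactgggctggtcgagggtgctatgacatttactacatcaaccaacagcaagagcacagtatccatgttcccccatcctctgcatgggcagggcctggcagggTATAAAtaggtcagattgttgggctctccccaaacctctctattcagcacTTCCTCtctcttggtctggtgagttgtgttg

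S100a8 held TATAAA at -30 to -25, a C/EBP match at -117 to -110, and GAGGAA on the opposite strand at -170 to -165 and at -36 to -31, directly beside it. S100a9 held C/EBP matches on the opposite strand at -236 to -229 and at -130 to -123, and TATAAA at 1 to 6, that is, at the annotated start itself. S100a4 held TATAAA at -31 to -26 and GAGGAA on the opposite strand at 20 to 25. A window was found for 8 of the 10 members, with 9 windows in all, and not for S100a10 and S100a14. TATAAA was in the windows of these 3 genes and of no other member with a window, and 13.6% of all 32851 windows hold it. TTNNGNAA, which 40.7% of windows hold, was in those of S100a8 and S100a9 alone. GAGGAA, which 28.3% hold, was in windows of S100a8, S100a4, S100a11 and S100a16 and not in that of S100a9.

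TGANTCA, the AP-1 site, was matched in the windows of S100a11 (2 matches) and S100a16 (1 match), against 7.81% of all windows. No member window matched the NF-kB patterns (GGGNNTTCC, in 5.82% of windows, or the same with 1 more free base, in 5.56%) or the STAT pattern TTCNNNGAA (8.3%). Such matches are descriptions of letters in a window, not sites of binding.

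S100a4, a protein of motile stromal and myeloid cells that binds non-muscle myosin, was lower in every knockout array. Its signal in WT (probe set 1424542_at) was 1160 and 1378. GPR41 KO gave 436.3 and 536.3, and GPR43 KO gave 773.1 in replicate 2 and 439.6 in the library labelled replicate 1. No knockout array reached the lower WT array. The change was -1.35 ± 0.25 in GPR41 KO (95% interval -1.93 to -0.78, limma, adjusted p = 0.0182), or 2.56-fold lower. In GPR43 KO it was -1.09 ± 0.25 (-1.67 to -0.52, limma, adjusted p = 0.0514), which missed the threshold. The GPR41 KO call was lost without the second WT array (limma, adjusted p = 0.0736) and without the first or the second GPR41 KO array (0.128 and 0.0616). In GPR43 KO the value was -0.70 (limma, adjusted p = 0.181) without the library labelled replicate 1, and it passed without replicate 2 (-1.49, adjusted p = 0.0235) or without WT replicate 1 (-1.21, adjusted p = 0.0425).

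Of the 9 members tested, 3 were lower past the threshold in GPR41 KO and none higher. Over all genes, 3.11% were called lower and 1.85% higher in that comparison. In GPR43 KO 2 of 9 were lower and none higher, against 2.41% and 1.55% of all genes. Leaving out WT replicate 2 or either GPR41 KO array gave a GPR41 KO count of 2, where S100a4 dropped out. In GPR43 KO it was 3 without WT replicate 1 or GPR43 KO replicate 2, where S100a4 joined. The median change over the 9 members was -0.11 and -0.08, against 0.000505 and 0.0296 over all genes.

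In GPR41 KO both arrays were below both WT arrays for 3 of 9 members and above for 1, against 25.3% and 24.6% of all genes. In GPR43 KO the counts were 3 and 2, against 22.9% and 27.7%. These shares lie near the background of all genes and are no result about the members.

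**Figure D2:**
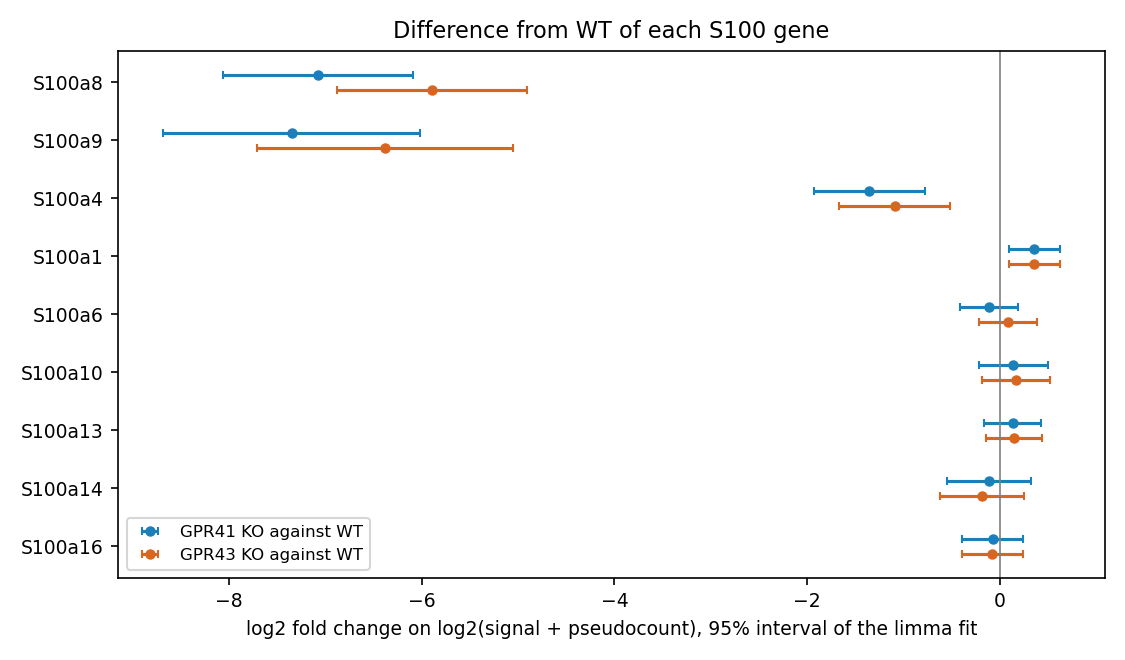
Change of each tested S100 gene against WT as a difference of log2(signal + 18), with the 95% interval of the limma fit as bars, for GPR41 KO and GPR43 KO. S100a8 and S100a9 lie between -7.35 and -5.89, S100a4 at -1.35 and -1.09, and the other 6 genes between -0.19 and 0.36.

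S100a10 was not called in either knockout. S100a10 (probe set 1416762_at), which binds annexin A2 and has lost the ability to bind calcium, read 20391 and 26612 (WT), 26996 and 24332 (GPR41 KO) and 27134 and 25172 (GPR43 KO). The groups overlapped, and the change was 0.14 (95% interval -0.22 to 0.49, limma, adjusted p = 0.682) and 0.17 (-0.19 to 0.52, limma, adjusted p = 0.608). A fall of the size seen for S100a4 lies outside these intervals. The other 2 probe sets of S100a10 differed from each other. The probe set 1439348_at read 367.4 and 389.4 in WT against 489.6 to 628.6 in the knockouts (0.53 and 0.51, limma over all probe sets, adjusted p = 0.319 and 0.347), while 1456642_x_at gave -0.06 and 0.08.

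The shared S100a11 probe set (1460351_at) read 18750 and 28167 (WT), 14102 and 13055 (GPR41 KO) and 16263 and 13456 (GPR43 KO). All 4 knockout arrays were below WT, at 55.6% to 69.3% of the WT mean. The change was -0.76 ± 0.20 and -0.63 ± 0.20, which did not pass the threshold over all probe sets (limma, adjusted p = 0.172 and 0.269). S100a11 binds annexin A1, and the signal cannot be divided between the gene and the sequences that share its probes.

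S100a6, also called calcyclin, binds the ubiquitin ligase component encoded by Cacybp. Its probe set 1421375_a_at read 31475 and 36268 (WT), 31518 and 31009 (GPR41 KO) and 35255 and 36192 (GPR43 KO). The arrays overlapped, and the change was -0.11 (95% interval -0.41 to 0.19, limma, adjusted p = 0.696) and 0.08 (-0.22 to 0.38, limma, adjusted p = 0.785).

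S100a14 is found mainly in epithelia. S100a14 (1449166_at) read 4116 and 3946 (WT), 4275 and 3248 (GPR41 KO) and 2955 and 4240 (GPR43 KO). Its arrays overlapped in both comparisons, with changes of -0.11 (95% interval -0.55 to 0.32, limma, adjusted p = 0.798) and -0.19 (-0.62 to 0.25, limma, adjusted p = 0.641). S100a16 (1425560_a_at) read 11395 and 12719 (WT), 12539 and 10392 (GPR41 KO) and 10702 and 12146 (GPR43 KO). It too overlapped, and both changes were -0.08 (95% intervals -0.40 to 0.24, limma, adjusted p = 0.818 and 0.805). Its second probe set, 1447676_x_at, gave -0.17 and -0.14.

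S100a1, best known as a regulator of calcium handling in heart muscle, was the one tested member with higher signals in all knockout arrays. Its probe set 1419814_s_at read 7800 and 8259 (WT), 10732 and 9877 (GPR41 KO) and 10534 and 10019 (GPR43 KO). The difference was 0.36 ± 0.12 in each comparison (95% intervals 0.09 to 0.62, limma, adjusted p = 0.130 and 0.138), which did not pass the threshold once all genes were taken into account. The second one, 1417421_at, read 2913 and 2832 (WT), 3570 and 3432 (GPR41 KO) and 2962 and 3338 (GPR43 KO). That set was higher by 0.28 and 0.13.

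S100a13, which takes part in the release of FGF1 from cells, read with 1418704_at 4283 and 4636 (WT), 5363 and 4440 (GPR41 KO) and 4933 and 4939 (GPR43 KO). The GPR43 KO arrays were above WT by a small step and the GPR41 KO arrays overlapped with WT. The changes were 0.13 (95% interval -0.16 to 0.42, limma, adjusted p = 0.635) and 0.15 (-0.15 to 0.44, limma, adjusted p = 0.577). RefSeq starts of S100a13 and S100a1 lie so close on opposite strands that their windows overlap. For these 6 members that did not pass in either comparison, the GPR43 KO values without the library labelled replicate 1 lay between 0.01 and 0.32.

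**Figure D3:**
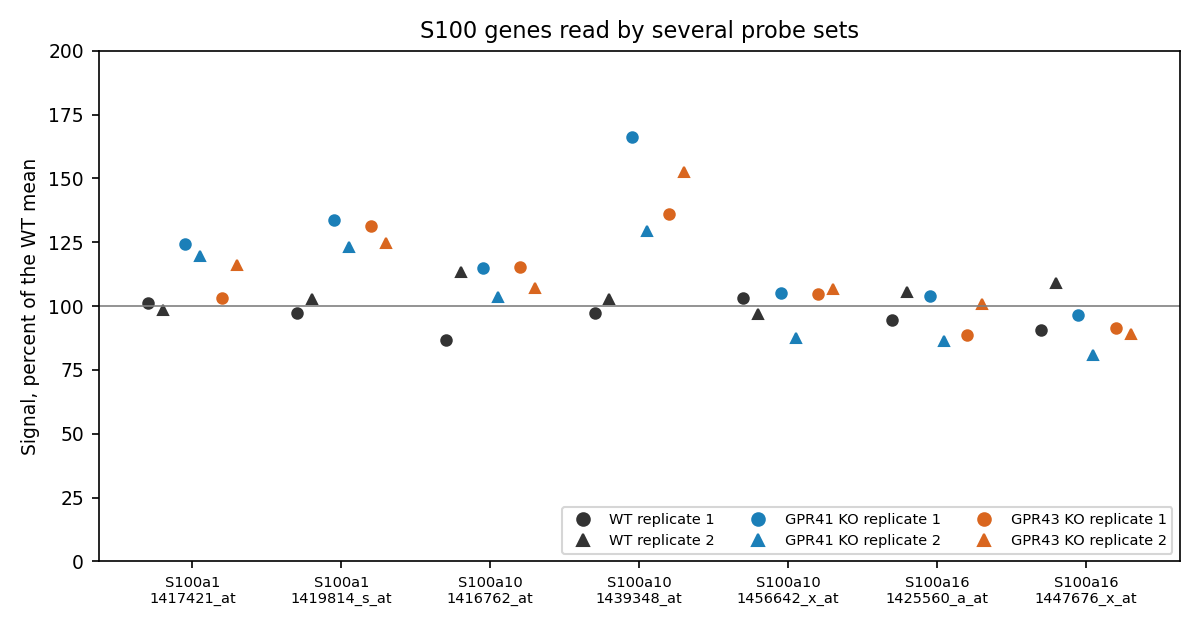
Signal of the 7 probe sets of the S100 genes read by several (S100a1, S100a10 and S100a16) as a percentage of the WT mean of each, 1 point an array, coloured by genotype and shaped by replicate. All 4 knockout arrays lie above both WT arrays for both S100a1 probe sets and for 1439348_at of S100a10, and overlap with WT for the others or lie near it.

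The contrast of the calprotectin pair with the other members was taken within each array, as the mean log2 signal of S100a8 and S100a9 minus that of the 7 other tested members. In WT it was 2.21 and 2.80. GPR41 KO gave -4.34 and -4.78, and GPR43 KO gave -4.56 in replicate 2 and -2.53 in the library labelled replicate 1. Against WT the contrast was -7.07 in GPR41 KO and -6.05 in GPR43 KO, with a pooled SD between arrays of 0.881. Without the first GPR43 KO library the latter was -7.07, and without the second -5.03. The 7 others together moved by between -0.21 and 0.01 in the knockout arrays, so that nearly all of the contrast came from the pair. No test was made of this contrast, because the members were chosen with results known.

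Of the tested neutrophil markers, all but 1 fell as well. Of 26 listed genes 19 had a probe set and 10 were tested, of which 9 were lower in each knockout (limma, adjusted p under the threshold), with medians of -3.70 and -4.13. The mean of the 4 knockout arrays lay under the filter on weak signals for 7 of these 10 genes (Csf3r, Ngp, Mmp8, Il1r2, Fpr2, Trem1 and Itgam), which were tested only because WT was high. The count and the medians are thus partly set by the filter. Over all genes, 3.11% and 2.41% were called lower in GPR41 KO and GPR43 KO. Lcn2, lipocalin 2, which epithelium also makes and which the list of metal handling genes below holds too, read 15634 and 34828 in WT against 142.9 to 279.5 in the knockouts (-7.05 and -6.40). Mmp8, neutrophil collagenase, changed by -5.69 and -5.39, Il1r2, a decoy receptor of interleukin 1, by -5.58 and -4.89, and Mmp9, gelatinase B, by -2.74 and -2.52. These 4 genes kept their calls whichever array was left out, and the count for GPR43 KO was 7 without WT replicate 2 or GPR43 KO replicate 2. It stayed at 9 without the library labelled GPR43 KO replicate 1. The summed signal of the 19 markers was 27594 and 64743 in WT and 3604 to 4081 in the knockouts, where Cd177, named after its values were seen, made up most of it at 2359 to 3118. Cd177 was the tested marker that did not fall: it read 1999 and 2167 in WT, all 4 knockout arrays lay above these, and its differences of 0.38 and 0.27 did not pass the threshold (limma, adjusted p = 0.216 and 0.362). Cxcr2 and Camp, also listed, were below the filter and so untested. They were weak in the knockouts, with at most 41.2 and 21.1 (142.5 and 448.7, and 35.6 and 398.5 in WT). Ltf, lactoferrin, read 224.3 and 972.8 in WT and at most 34.8 in the knockouts. Mpo and Elane lay at or below 165 in every array. In bulk RNA, fewer cells of a type and less RNA per cell cannot be told apart, and the part of these cells in the calprotectin signal was not tested.

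**Figure D4:**
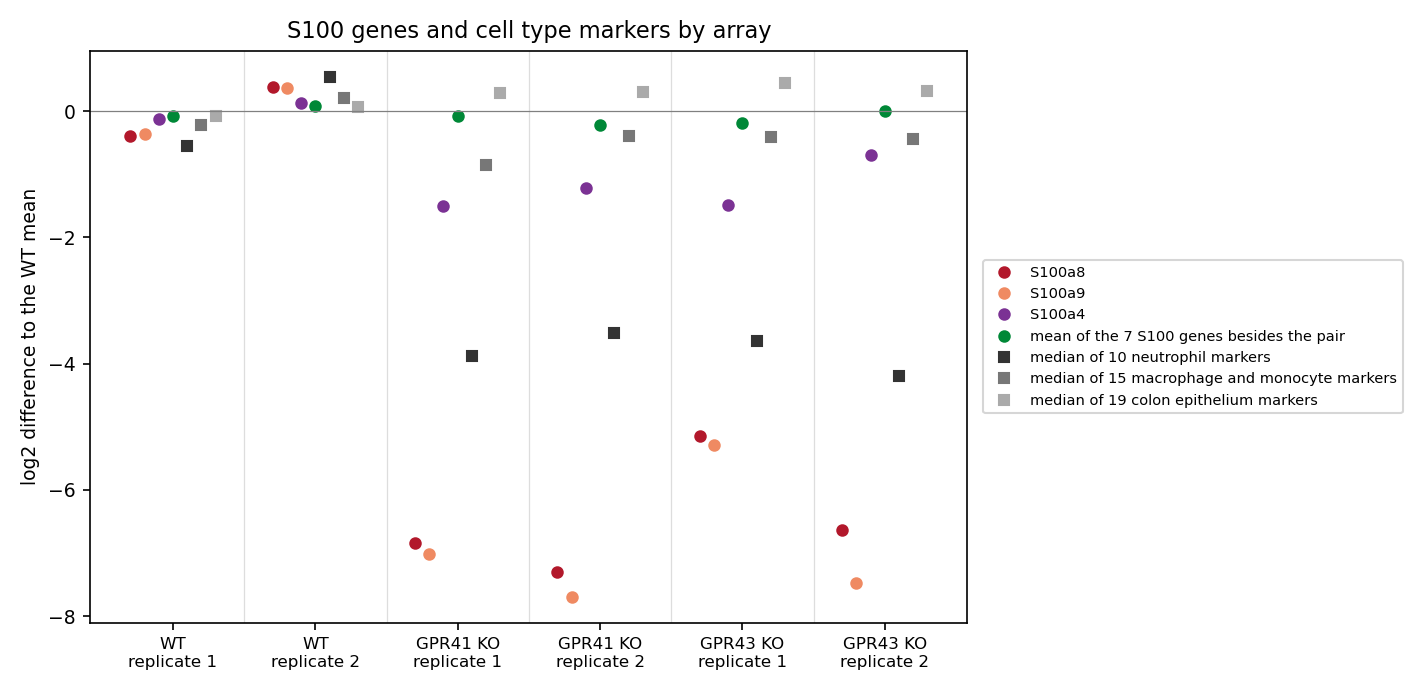
Difference of each array to the WT mean (log2) for S100a8, S100a9, S100a4, the mean of the 7 S100 genes besides the pair, and the medians of 10 neutrophil, 15 macrophage and monocyte and 19 colon epithelium markers. Neutrophil markers lie between -4.20 and -3.51 in the knockout arrays, below the 7 S100 genes near 0 and above S100a8 and S100a9. Of these 10 markers, 7 were tested only because WT was high, so their median is partly set by the filter. The scale also understates the change of weak signals.

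Medians of other cell type markers lay nearer to 0. Over all genes, 3.11% and 2.41% were called lower in GPR41 KO and GPR43 KO, and 1.85% and 1.55% higher. Of 15 tested macrophage and monocyte markers 5 were lower in each knockout, with medians of -0.63 and -0.42, and their summed signal was 60752 and 84246 in WT and 50558 to 58510 in the knockouts. For 2 of the 15, Ccr2 and Fcgr1, the mean of the knockout arrays lay under the filter on weak signals. Fcgr1 was among the called genes in each knockout, so these counts too are partly set by the filter. Leaving out WT replicate 1 gave a GPR41 KO count of 9, leaving out GPR41 KO replicate 1 gave 2, and the GPR43 KO count was 3 without WT replicate 2 and 2 without either GPR43 KO array. Chil3, the chitinase-like protein Ym1, fell by 5.35 and 4.57 (-4.51 in GPR43 KO without the library labelled replicate 1), and Cd14 fell by 2.29 in GPR41 KO. Of 19 colon epithelium markers 2 were higher in GPR41 KO and 1 in GPR43 KO, with medians of 0.31 and 0.37 and summed signals of 399935 and 442271 in WT and 512748 to 593703 in the knockouts. Without WT replicate 1 the counts were 6 and 5, without WT replicate 2 they were 0 and 2, and without any one knockout array they were 0 and 0. Markers of the labelled tissue were thus strong in every array. Squamous epithelium, which also makes calprotectin, was represented by 2 tested genes of 20 listed, neither called (1 called without WT replicate 1). Its defining keratins Krt5 and Krt14 and Trp63 read at most 111.7 in any array. Below the filter and so untested, Krt13 read 186.4 and 149.5 in WT against 26.7 to 74.1 in the knockouts, and Krt16 read 62.2 and 54.7 against 2.43 to 22.8, so both lay lower in every knockout array. Krt14 lay the other way, at 53.4 and 51.2 in WT and 85.8 to 111.7 in the knockouts, and Krt6a (139.0 and 188.0 in WT) overlapped in GPR41 KO, at 50.2 and 158.3, and was lower in GPR43 KO, at 74.3 and 68.5. Sprr1a read 1531 and 4519 in WT and 869.2 to 1734 in the knockouts, beside a summed signal of the list of 2735 and 5747 in WT and 1897 to 2825 in the knockouts. The part of these cell types in the S100 values was not tested.

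The remaining marker lists held few calls. Shares called over all genes were 3.11% lower and 1.85% higher in GPR41 KO, and 2.41% lower and 1.55% higher in GPR43 KO. Of 10 smooth muscle markers 1 and 2 were higher in GPR41 KO and GPR43 KO, and Actg2, enteric smooth muscle actin, was called in both (0.83 and 0.88), but not without either array of the knockout concerned (limma, adjusted p = 0.0584 to 0.103). Of 12 fibroblast and stromal markers only Pdpn, podoplanin, was called, at -1.74 and -1.45. Of 5 lymphocyte markers 1 was higher in GPR41 KO, and of 5 adipocyte markers 2 and 1 were lower. None of 6 enteric neuron and glia markers was called by limma in either comparison. With 1 array left out these counts ranged from 0 to 4, and the Pdpn call in GPR41 KO was kept whichever array was left out, while that in GPR43 KO was lost without its replicate 2 (limma, adjusted p = 0.117).

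Receptors proposed for calprotectin and their adaptors were tested for 11 of 13 genes, of which Cd14 and Cd68 also stand in the macrophage list. In GPR41 KO 2 were lower and none higher (median -0.31), against 3.11% and 1.85% of all genes. In GPR43 KO 3 were lower and none higher (median -0.22), against 2.41% and 1.55%. Cd14, the co-receptor of TLR4, read 6174 and 12074 (WT), 1762 and 1746 (GPR41 KO) and 2320 and 1904 (GPR43 KO). It fell by 2.29 ± 0.26 (limma, adjusted p = 0.0022) and by 2.03 ± 0.26 (adjusted p = 0.00496), and by 2.17 in GPR43 KO without the library labelled replicate 1 (limma, adjusted p = 0.0167). Cd68, a lysosomal protein of macrophages, fell by 1.84 and 1.48 (limma, adjusted p = 0.00559 and 0.0188), but lost the call in GPR41 KO without GPR41 KO replicate 1 (adjusted p = 0.0526) and in GPR43 KO without either of its arrays (0.0621 and 0.121). Myd88, the adaptor of most Toll-like receptors, differed by -0.64 (limma, adjusted p = 0.0941) and -0.84 (0.0437), and the latter call was lost without the second WT array (0.165), either GPR41 KO array (0.0769 and 0.076) or GPR43 KO replicate 2 (0.241).

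Tlr4 itself, named outside the rule as the receptor most often cited, read 361.7 and 351.5 (WT), 331.3 and 368.3 (GPR41 KO) and 335.7 and 276.2 (GPR43 KO). Its differences were -0.03 and -0.22 (limma, adjusted p = 0.961 and 0.594). Ager, which encodes the receptor RAGE, was at or below 46.2 in every array and was not tested. Bsg, basigin, and Cd36, a scavenger receptor, did not pass the threshold (0.28 and 0.29 for Bsg, -0.91 and -0.77 for Cd36). The count of called genes in the list was 1 in GPR41 KO without GPR41 KO replicate 1 and 1 in GPR43 KO without GPR43 KO replicate 2.

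Transcription factors placed beside S100a8 and S100a9, among them C/EBP, PU.1, STAT, AP-1 and NF-kB members, were tested for 15 of 17 genes. In GPR41 KO 3 were lower and 1 higher (median -0.24), against 3.11% and 1.85% of all genes. In GPR43 KO 2 were lower and none higher (median -0.18), against 2.41% and 1.55%. Cebpb, encoding C/EBP beta, read 5088 and 7538 (WT), 1322 and 926.6 (GPR41 KO) and 1250 and 1205 (GPR43 KO). All knockout arrays were far below WT, with changes of -2.47 ± 0.21 (limma, adjusted p = 0.000745) and -2.32 ± 0.21 (adjusted p = 0.00137), the latter -2.34 (adjusted p = 0.00558) without the first GPR43 KO library. Cebpd, encoding C/EBP delta, read 5844 and 8146 in WT against 1487 to 2474 in the knockouts, and fell by 1.90 and 1.52 (limma, adjusted p = 0.0022 and 0.00738). The GPR43 KO value was -1.56 (limma, adjusted p = 0.0335) without the library labelled replicate 1, and the call was lost without replicate 2 (0.0553).

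Spi1, encoding PU.1, a factor of myeloid lineages, differed by -1.49 (limma, adjusted p = 0.0337) and -1.11 (0.0974), with the first call lost without WT replicate 2 (0.161) or GPR41 KO replicate 1 (0.197). Stat3 differed by -0.50 and -0.69 (limma, adjusted p = 0.129 and 0.0522). Fos, a component of AP-1, was the gene called higher, with 3391 and 3848 (WT), 9175 and 5910 (GPR41 KO) and 4166 and 4616 (GPR43 KO). Its change was 1.02 in GPR41 KO (limma, adjusted p = 0.0197), lost without GPR41 KO replicate 1 (0.0923), and 0.28 in GPR43 KO (adjusted p = 0.475). The count of called factors depended on the arrays: leaving out WT replicate 1 gave 7 in GPR41 KO, leaving out GPR41 KO replicate 1 gave 2, and in GPR43 KO it was 6 without WT replicate 1, 3 without WT replicate 2 and 1 without GPR43 KO replicate 2.

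Genes of zinc, manganese and iron handling, the metals that calprotectin and its neighbours bind, were tested for 13 of 17. In GPR41 KO 5 were lower and 1 higher (median -0.21), against 3.11% and 1.85% of all genes. In GPR43 KO 5 were lower and none higher (median -0.28), against 2.41% and 1.55%. Besides Lcn2, which binds bacterial iron carriers, Mt2, a zinc-storing metallothionein, read 16537 and 30117 (WT), 3588 and 3139 (GPR41 KO) and 4920 and 4682 (GPR43 KO). It fell by 2.73 and 2.21 (limma, adjusted p = 0.000745 and 0.00203). Slc11a1, the phagosome metal transporter NRAMP1, read 1073 and 1763 in WT against 219.5 to 365.3 in the knockouts, and fell by 2.44 and 1.98 (limma, adjusted p = 0.00114 and 0.00418). Without the library labelled GPR43 KO replicate 1 the GPR43 KO changes of Lcn2, Mt2 and Slc11a1 were -6.50, -2.25 and -2.09, and all kept their calls.

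Slc39a14, the zinc and manganese importer ZIP14, fell by 0.96 and 1.42 (limma, adjusted p = 0.0239 and 0.00538). Its GPR41 KO call failed without the second WT array (0.11) and without the first or the second GPR41 KO array (0.126 and 0.117). Mt1, the other metallothionein, fell by 1.63 and 1.33 (limma, adjusted p = 0.012 and 0.0345). Its GPR41 KO call was lost without either GPR41 KO array (0.0729 and 0.0826), and its GPR43 KO call without any one knockout array (0.0622 to 0.154). Slc30a1, a zinc exporter named after its value was seen, was the gene called higher, by 0.75 in GPR41 KO (limma, adjusted p = 0.0279). This call was lost without the second WT array or either GPR41 KO array. Slc30a10 differed by 1.19 in GPR41 KO and was not called (limma, adjusted p = 0.0761). The GPR41 KO count of this list was 4 without WT replicate 2 and 3 without either GPR41 KO array.

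Binding partners of the other S100 proteins were mostly not called. Of 13 tested genes 1 was lower in each knockout, against 3.11% and 2.41% of all genes, and the medians were -0.19 and -0.18. That gene was Plat, tissue plasminogen activator, which annexin A2 and S100a10 hold at the cell surface. It read 743.6 and 659.1 (WT), 211.2 and 229.6 (GPR41 KO) and 180.0 and 235.7 (GPR43 KO), and fell by 1.59 and 1.68 (limma, adjusted p = 0.00391 and 0.00429). The GPR43 KO change was -1.50 (limma, adjusted p = 0.0231) without the library labelled replicate 1. Anxa2 itself, named after its values were seen, differed by -0.08 and -0.06. Anxa1 differed by -0.60 and -0.55, Anxa5 by -0.58 and -0.38, Cacybp by -0.23 and -0.54 and Sugt1 by -0.19 and -0.27, and none of these passed the threshold. Without WT replicate 1 the count was 3 in each knockout, and without the library labelled GPR43 KO replicate 1 it was 2 in GPR43 KO.

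**Figure D5:**
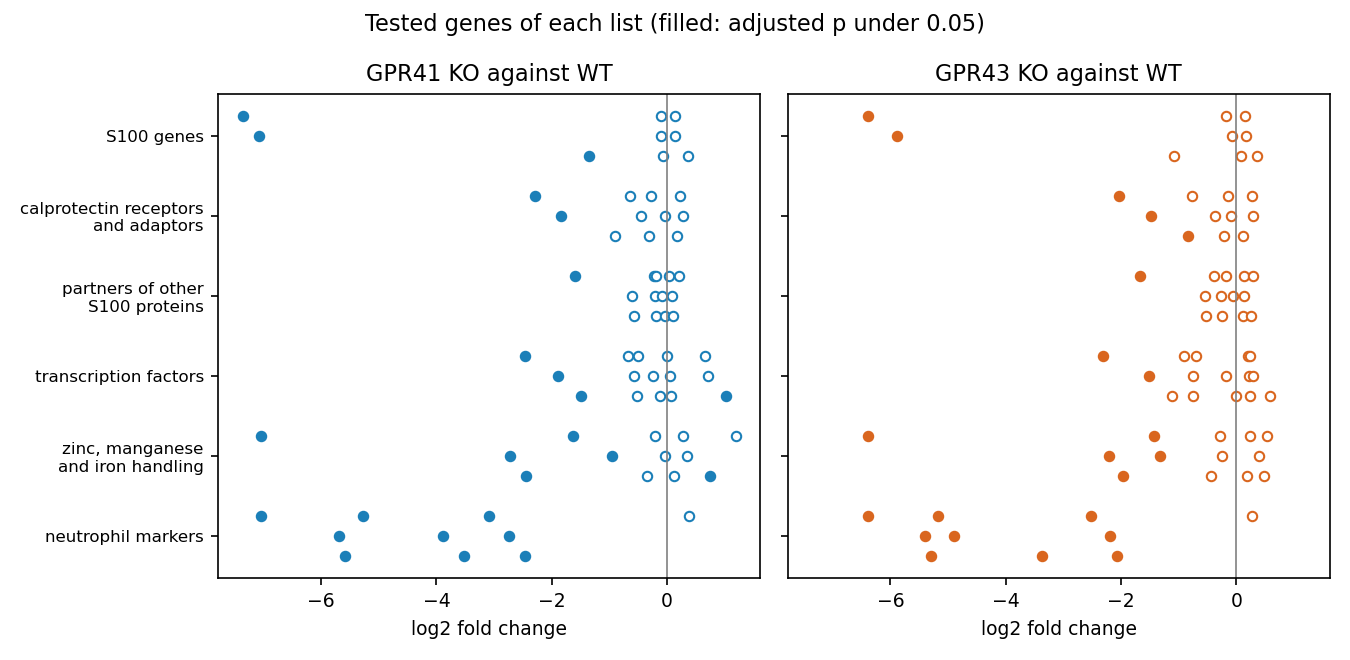
Change against WT (log2) of every tested gene in the S100 list and in 5 other lists, with GPR41 KO on the left and GPR43 KO on the right. Filled points passed the adjusted threshold in limma: 3 and 2 of 9 S100 genes, 9 and 9 of 10 neutrophil markers, and smaller shares of the other lists. Of the 10 neutrophil markers, 7 were tested only because WT was high.

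Most other S100 genes were below the filter on weak signals. Of 9 listed, 6 had a probe set and 2 were tested, and neither was called by limma. S100g, the calcium-binding calbindin of the gut, read 1468 and 3731 (WT), 1877 and 3804 (GPR41 KO) and 1757 and 1501 (GPR43 KO). Its arrays overlapped, with changes of 0.19 and -0.52 (limma, adjusted p = 0.853 and 0.540). S100pbp, listed for its name, encodes a protein that binds S100P and is not itself an S100 protein. It differed by 0.26 and 0.21 (limma, adjusted p = 0.632 and 0.705). S100a3, S100a5, S100a7l2 and S100b lay between 1.03 and 140.8 in all arrays, over all their probe sets. Of 7 fused S100 genes of the skin barrier, 5 had a probe set, none was strong enough to be tested, and their signals lay between 0.56 and 51.5.

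Some genes followed the calprotectin pair closely over the 6 arrays. The 6 with the highest Pearson correlation to the mean of S100a8 and S100a9 were Lrg1 (r = 0.999), Pirb (0.997), Clec4e (0.997), Cd300lf (0.996), Cxcl5 (0.996) and Arg1 (0.996). Because the arrays fall into WT and knockout, these values mostly describe that separation, and they were not tested. Lrg1 read 4652 and 7107 (WT), 375.1 and 310.0 (GPR41 KO) and 747.3 and 412.6 (GPR43 KO). Like S100a8 it was highest, among the knockouts, in the library labelled GPR43 KO replicate 1. Lrg1 was picked for its correlation with the pair, so this order is partly set by the pick. Clec4e read 16.2 to 78.1 in the knockouts and passed the filter on weak signals only because WT was high. For S100a4 the closest genes were Smndc1, Rgs19, Cyyr1 and Procr (r = 0.988 to 0.992), and for S100a14 they were Lrrc20, 0610040J01Rik, Ash2l and Gnl3l (r = 0.967 to 0.987). Picking the highest of all tested genes over only 6 arrays gives high values by itself, and these were not tested either.

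Leaving out the first GPR43 KO library turned the median of the 9 tested members against WT from -0.08 to 0.073. Mmp8 and Il1r2 were tested only because WT was high, and the neutrophil median is partly set by the filter on weak signals. Without the first GPR43 KO library this median was -4.20, with Mmp8 at -6.03, Il1r2 at -5.42 and Mmp9 at -2.64. Medians without it were -0.25 for the calprotectin receptors and adaptors, -0.24 for the binding partners, -0.19 for the transcription factors and -0.29 for metal handling, with 2, 2, 2 and 4 genes lower. Among these lists, Slc39a14, a zinc and manganese importer, stood at -1.56, Stat3 at -0.87, Anxa1 at -0.39 and the scavenger receptor Cd36 at -0.33 (limma, adjusted p = 0.0161 for Slc39a14 and 0.0613 for Stat3). The medians of the macrophage and monocyte markers and of the colon epithelium markers were -0.44 and 0.32. The T and B lymphocyte median went from 0.36 to 0.11 and that of enteric neuron and glia markers from -0.18 to -0.31. S100g differed by -0.64 and S100pbp by 0.31, neither past the threshold (limma, adjusted p = 0.625 and 0.710).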

How the data were processed

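Total RNA of 6 colon samples was measured on Affymetrix mouse arrays, 1 array a sample, after 2 µg was amplified and labelled with biotin, per the labels. Each probe set has 1 deposited intensity an array, on a linear scale, which the authors computed with MAS5 per the submitters' processing notes (version not given in the sources used here). MAS5 subtracts background, so weak signals and their ratios are unstable. Of 45101 probe sets, 34958 carried 1 gene symbol, 932 several and 9211 none, and 34754 were matched to RefSeq (GRCm38.p6) by Entrez identifier.

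For this work, 18 (the 20th percentile of all values) was added before log2, the probe set with the highest mean was kept for each gene, and genes above the 40th percentile of the mean were tested. This filter passes genes that are high in 1 group only. All 6 arrays were fitted with limma 3.58.1 (lmFit and trended eBayes) under R 4.3.3, leaving 3 residual degrees of freedom (8.71 after sharing). Tests were two-sided, with Benjamini-Hochberg adjustment over 10916 genes and a threshold of 0.05. The procedure was tested on simulated data. Promoter windows came from RefSeq. An exact permutation test of 2 against 2 arrays cannot give a p below 0.333 and was not used. The number of arrays limits the precision.

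The members and lists were chosen with earlier results of these data known. Named were all members, the other S100 genes with a probe set, up to 5 genes of each list with the smallest p, and the genes most correlated with the pair, S100a4 and S100a14. Alternatives covered the pseudocount, normalization, filter, probe set choice, fit, a block for the replicate number, and each array left out. Counts of called genes in each list with an array left out, and list medians without the first GPR43 KO array, were added after seeing the data.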

Additional observations from a re-analysis of the deposited data

How the results depend on the processing

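S100a8 and S100a9 kept their direction and stayed past the threshold against WT in all 17 alternatives, with changes from -7.47 to -6.69 and from -7.71 to -6.99 in GPR41 KO, and from -6.64 to -5.14 and from -7.47 to -5.29 in GPR43 KO. The GPR41 KO call of S100a4 was also lost in limma without the intensity trend (-1.35, adjusted p = 0.0537). In GPR43 KO, S100a4 passed with a pseudocount of 72 (-1.02, limma, adjusted p = 0.0476) and with median centring (-1.09, adjusted p = 0.0184). Changes near 0 turned: S100a6 in GPR43 KO was -0.0799 with quantile normalization and S100a16 in GPR41 KO was 0.018 with median centring. With 1 array left out, the values ranged as follows against WT: S100a10 from -0.0542 to 0.33 in GPR41 KO and from -0.0261 to 0.36 in GPR43 KO, S100a6 from -0.0219 to 0.18 in GPR43 KO, S100a13 from -0.00515 to 0.27 in GPR41 KO, S100a14 from -0.31 to 0.0848 in GPR41 KO and from -0.45 to 0.0730 in GPR43 KO, and S100a16 from -0.21 to 0.0587 in GPR41 KO and from -0.17 to 0.0128 in GPR43 KO. Between the knockouts S100a9 ranged from -0.12 to 2.06 and S100a4 from -0.13 to 0.66. The pair minus the other members ranged from -7.07 to -5.03 in GPR43 KO against WT and from 0.0017 to 2.03 between the knockouts. The cause of these turns was not tested.

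The replicate numbers were not seen to pair the arrays. With the group means taken out, same-numbered arrays correlated over genes at 0.107 (WT and GPR41 KO), -0.271 (WT and GPR43 KO) and -0.0537 (the knockouts). With the replicate number as a block, S100a4 passed in GPR43 KO (-1.09, limma, adjusted p = 0.0285), 3 members were called in each knockout against WT, and 401 and 295 genes were called in all, against 541 and 432. The number of genes called was 360 and 217 without the intensity trend and 335 and 280 with 7278 genes tested above the 60th percentile. With 1 array left out it ranged from 195 to 891 in GPR41 KO, from 129 to 759 in GPR43 KO and from 0 to 3 between the knockouts. Leaving out 1 array makes its group a lone array that is assumed to vary like the others.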
